A study of Mus musculus with 12 samples.

Results

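Matk, Bmx, Ptpn6, Inpp5d, Sh2d6, Sh2d7, Rgs13, Clec4a1 and Cd24a are 9 genes expressed by intestinal tuft cells, several of them shared with white blood cells, and they encode kinases, phosphatases, adaptors and surface proteins of the kind that carries signals from immune receptors. They were chosen by symbol as tuft cell genes, with earlier results of these data known, and no measured threshold was applied. All 9 were among the 14244 gene rows of the table. All 9 also passed the filter on low values, a mean normalized count of at least 10 over the 12 libraries, which left 12808 genes tested. A normalized count is the number of reads on a gene divided by the size factor of its library.

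RNA was sequenced from gut epithelial cells of 8-week-old mice on the C57BL/6 strain. The control group was wild type (WT, 5 libraries). The other group was Chd8L+/- (7 libraries), heterozygous in every tissue for a deletion that disrupts the large isoform of Chd8, a chromatin remodeler whose gene is strongly associated with autism. The mice were male littermates, and by the study's methods the cells came from 5 WT and 7 Chd8L+/- mice, the same numbers as the libraries. The labels do not name the segment of gut, and the cells were a mixed epithelial preparation, not sorted tuft cells. The comparison asked which transcripts of the gut epithelium differ in mice with 1 disrupted Chd8 allele.

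Tuft cells are rare chemosensory cells of the gut epithelium. They sense luminal metabolites through a taste-like cascade, release interleukins and lipid mediators that start type 2 immune responses, and depend on the transcription factor POU2F3. In lymphocytes and myeloid cells, SRC-family kinases phosphorylate tyrosines on receptors, adaptors with SH2 domains dock there, TEC-family kinases and phospholipases act downstream, and the phosphatases SHP1 (Ptpn6) and SHIP1 (Inpp5d) are recruited to inhibitory motifs and oppose the signal. The role of this machinery in tuft cells is less well worked out. The name kinases and adaptors fits 4 of the 9 genes in the strict sense (Matk, Bmx, Sh2d6 and Sh2d7), and the others are phosphatases, a regulator of G protein signaling and surface proteins.

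Matk and Clec4a1 also had real-time PCR primers in the study, and these are shown because they state which stretch of each transcript was amplified. The forward primer of Matk lies at chr10:81259182-81259199 and the reverse primer spans the junction of that exon with the next, within 81259281 and 81259395. The primer pair matches 10 of 11 annotated Matk transcripts and brackets 119 bases. Those of Clec4a1 lie at chr6:122932158-122932177 in exon 5 and across the junction of exons 5 and 6 within 122932256 and 122933787, match its only annotated transcript in coding sequence and bracket 117 bases. No other gene of the GENCODE M21 annotation (GRCm38, the assembly that mm10 names) holds either pair.
Matk forward primer: ggcccctgggactcaatg
Matk reverse primer: accagctcttgtcctcacag
Clec4a1 forward primer: accaacactctgaaccctcg
Clec4a1 reverse primer: gtgccaggatgtggcattt

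Promoters are shown for the genes with the largest and the smallest difference between the groups, Matk and Ptpn6, and for the only 2 in which a searched motif was found, Inpp5d and Sh2d7. Each line is the 250 bases before the transcription start in RefSeq (GRCm38.p6), read 5′ to 3′ on the strand of the gene, and capitals mark a motif.
Matk, chr10:81252685-81252934, plus strand: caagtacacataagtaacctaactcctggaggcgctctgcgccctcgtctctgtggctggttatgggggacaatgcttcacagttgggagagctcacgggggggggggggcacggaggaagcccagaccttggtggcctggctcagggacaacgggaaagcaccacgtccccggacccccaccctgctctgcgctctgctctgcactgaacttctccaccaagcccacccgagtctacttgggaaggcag
Ptpn6, chr6:124738710-124738959, minus strand: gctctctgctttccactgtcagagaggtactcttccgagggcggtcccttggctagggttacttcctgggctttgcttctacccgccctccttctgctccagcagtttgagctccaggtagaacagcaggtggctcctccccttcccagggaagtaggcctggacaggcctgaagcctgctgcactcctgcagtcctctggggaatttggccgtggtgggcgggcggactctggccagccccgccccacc
Inpp5d, chr1:87620062-87620311, plus strand: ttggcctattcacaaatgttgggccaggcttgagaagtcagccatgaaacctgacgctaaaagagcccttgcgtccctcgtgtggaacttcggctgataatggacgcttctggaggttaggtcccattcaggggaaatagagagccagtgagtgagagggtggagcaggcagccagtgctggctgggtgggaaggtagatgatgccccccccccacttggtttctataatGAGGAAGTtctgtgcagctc
Sh2d7, chr9:54533873-54534122, plus strand: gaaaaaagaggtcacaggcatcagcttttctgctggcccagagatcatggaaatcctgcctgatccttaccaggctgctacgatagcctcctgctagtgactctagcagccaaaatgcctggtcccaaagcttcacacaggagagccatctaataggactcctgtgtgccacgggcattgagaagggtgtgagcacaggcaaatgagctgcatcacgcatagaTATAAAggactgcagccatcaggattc

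Of the 9 genes, 8 had a promoter in the RefSeq table, and Matk had a pair, which gave 9 windows that run from 250 bases before to 50 after the start. The octamer bound by POU2F3 (ATGCAAAT) was in 0 of these 9 windows on either strand and in 1.74% of the 32851 promoters of the table. The ETS motif of the SPIB and PU.1 kind (GAGGAAGT) was in the Inpp5d window alone, starting at position -20 from the start, and in 3.20% of all promoters. The GFI1B motif (AATCACNGC) was in 0 of the 9 and in 0.919% of all. A TATA box (TATAAA) was in the Sh2d7 window alone, at position -27, and in 13.6% of all. None of the 4 motifs searched overlapped another in these windows. The median GC content of the 9 windows was 53.7% against 52.7% over all promoters. The 250 bases shown for Sh2d7 end at 54534122, upstream of the start that GENCODE gives that gene, 54538984.

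The 12 libraries held 15691662 to 20761315 reads on the listed genes. Chd8 itself ran from 823 to 1050.2 normalized counts in the libraries labelled WT and from 1084 to 1483 in the libraries labelled Chd8L+/- (log2 fold change 0.44 ± 0.10 (SE), limma adjusted p = 0.121), which is opposite in sign to the loss of an allele. That count sums every exon and isoform, so it does not measure the deleted exons and does not check the labels. The study assayed single exons by real-time PCR, which was not analysed here, and group names here are those of the labels. WT replicate 2 stood apart from the other WT libraries. Its summed level of the 13 myeloid markers tested was 3662 normalized counts against 1424 to 1736 in the other 4, its summed level of 10 proliferation genes was 12439 against 2962 to 6431, and its summed level of 19 tuft markers was 2979 against 12107 to 26702. Results that rest on it are therefore given with and without it. Epithelial genes were abundant throughout, with 10 enterocyte genes summing to 320629 to 797594, while 13 T cell markers summed to 2879 to 8013.

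All 9 genes had a lower mean in the Chd8L+/- libraries, by 2.14-fold (Ptpn6) to 6.23-fold (Clec4a1) on the ratio of group means, and none passed the adjusted threshold. Their median log2 fold change, Chd8L+/- minus WT, was -1.76, against 0.014 over all genes tested. In the limma fit over all 12 libraries 0 of the 9 reached an adjusted p of at most 0.05, beside 0.0234% of all genes that were called lower. At an unadjusted p of at most 0.05, 9 of the 9 were lower, beside 11.8% of all genes. Because the 9 genes were chosen with earlier results of these data known, these counts are a description and not independent evidence. In bulk RNA, fewer tuft cells and less of these RNAs per cell cannot be told apart.

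The outcome turned on WT replicate 2 and on the test used. WT replicate 2 was the lowest WT library for all 9 genes, so leaving it out raises their WT means. Without that library the same fit called all 9 genes lower, beside 13.6% of all genes, with adjusted p-values from 0.00273 (Clec4a1) to 0.00789 (Bmx) and a median log2 fold change of -2.30. With every library kept, DESeq2 on the recovered reads called 8 of the 9 lower, beside 4.58% of all genes, with Bmx as the exception, and edgeR called 0, with 9 of 9 lower at an unadjusted p of at most 0.05, beside 12.3% of all genes. With the letter that opens each library name as a block, 9 were called lower, beside 2.15% of all genes. Over the alternatives, the lowest adjusted p of a gene lay between 0.000787 (Clec4a1) and 0.00789 (Bmx), and the highest was 0.9997 for each. That highest value came only from the limma fit with the mean of other tuft markers as a covariate, which asks a different question. With 1 surrogate variable the limma adjusted p ran from 0.921 to 0.964. In every other alternative it was at most 0.345 (Bmx, limma without WT replicate 3).

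**Figure D1:**
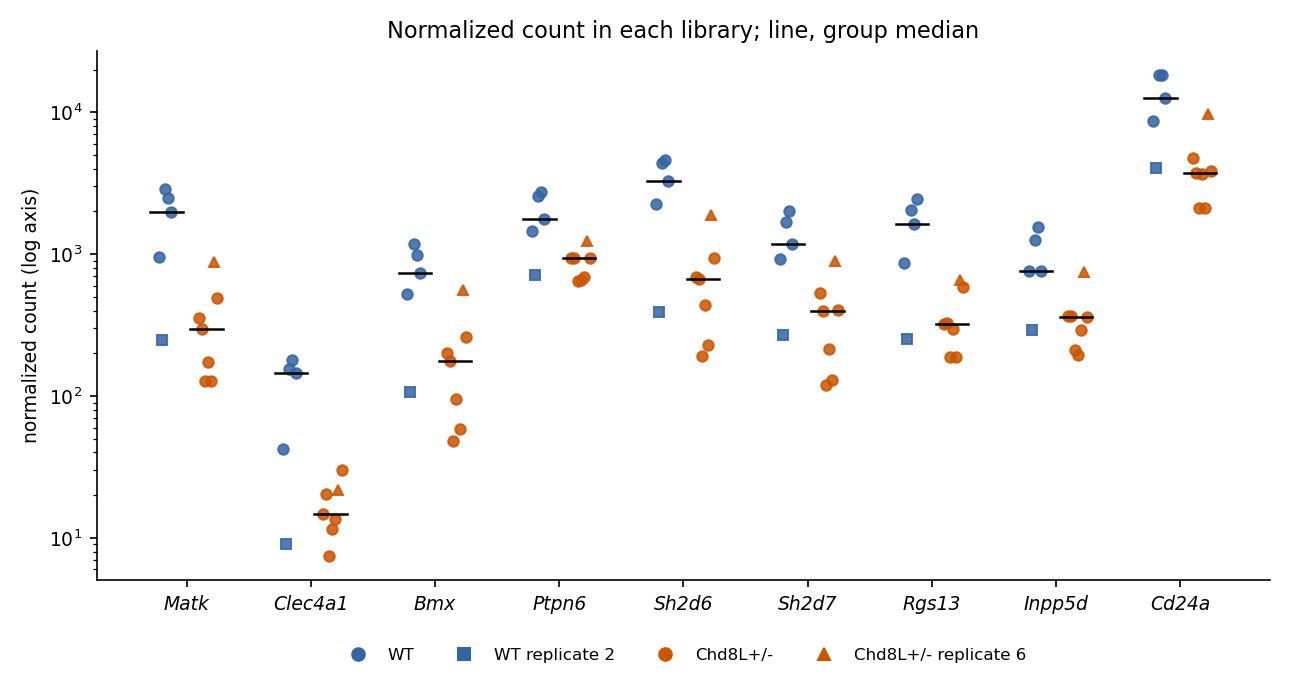
Normalized count (log axis) of the 9 genes in each of the 12 libraries, with a line at each group's median, squares for WT replicate 2 and triangles for Chd8L+/- replicate 6. For every gene the 7 Chd8L+/- libraries lie below the WT median, and WT replicate 2 lies among them. The share of all genes with that pattern was not computed.

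No gene separated the groups completely. For all 9, every Chd8L+/- library was below the WT median, yet WT replicate 2 always lay within the Chd8L+/- range and ranked between the 7th and the 11th of the 12 libraries. The share of all genes with every Chd8L+/- library below the WT median was not computed. That pattern also held for genes with small differences, such as Neurod1 (log2 fold change -0.15, limma unadjusted p = 0.467). Every Chd8L+/- library below every WT library was seen for 0 of the 9, beside 0.273% of all genes. Leaving out WT replicate 2, it was seen for 7 of the 9, beside 7.71% of all genes. Bmx and Cd24a were the exceptions, each with 6 of 7 below, because Chd8L+/- replicate 6 reached 562 against a lowest remaining WT value of 522 for Bmx, and 9670.5 against 8612 for Cd24a. WT replicates 3 and 4 held ranks 1 to 3 for every gene, and Chd8L+/- replicate 6 ranks 4 to 6.

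Matk encodes the CSK-homologous kinase, which phosphorylates the inhibitory tail tyrosine of SRC-family kinases. It lies at chr10:81252935-81263365 on the plus strand, with up to 14 exons. Its normalized counts in WT replicates 1 to 5 were 949, 249, 2879, 2481 and 1992, and the Chd8L+/- libraries ran from 127 over a median of 299 to 881. Apart from WT replicate 2, every WT library was above every Chd8L+/- library. The WT mean of 1710.1 ± 1090.3 (SD, n = 5) stood against a Chd8L+/- mean of 350.0 ± 269 (SD, n = 7), and the log2 fold change was -2.19 ± 0.61 (SE, limma adjusted p = 0.121). This was the largest of the 9 and the 38th lowest of the 12808 genes tested.

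Bmx encodes a TEC-family kinase that binds membrane phosphoinositides and lies at chrX:164192842-164258193 on the minus strand. WT replicates 1 to 5 held 522, 107, 1174, 992 and 732 normalized counts, and the Chd8L+/- libraries ran from 48.6 over 177 to 562. The groups overlapped through WT replicate 2 and, on the other side, Chd8L+/- replicate 6. The log2 fold change was -1.89 ± 0.65 (SE, limma adjusted p = 0.128). Bmx had the largest standard error of the 9 genes, and its highest library was 24.2 times its lowest.

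Ptpn6 encodes SHP1, a tyrosine phosphatase recruited by inhibitory receptors, and lies at chr6:124720707-124738714 on the minus strand. Its normalized counts were 1449, 707, 2557, 2745 and 1782 in WT replicates 1 to 5, and 649.8 to 1230.0 with a median of 939.6 in Chd8L+/-. The Chd8L+/- libraries lay close together, with a coefficient of variation of 0.246, and 3 of the 7 were below WT replicate 2. Ptpn6 had the smallest difference of the 9, -0.98 ± 0.29 (SE, limma adjusted p = 0.121), and its highest library was 4.22 times its lowest. Its transcripts share 4.07% of their 75-base stretches, the read length, with the antisense gene Gm20531, and reads from those stretches cannot be told apart without the strand setting of the counting, which the sources used here do not give.

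Inpp5d encodes SHIP1, a lipid phosphatase that turns PIP3 over, and lies at chr1:87620312-87720507 on the plus strand. WT replicates 1 to 5 held 765, 290.2, 1257, 1557 and 756 normalized counts, and the Chd8L+/- libraries ran from 196 over 363 to 747. The highest Chd8L+/- library, replicate 6, was just below WT replicate 5, the lowest WT library other than replicate 2. The log2 fold change was -1.27 ± 0.39 (SE, limma adjusted p = 0.121). The pair of phosphatases had the smallest differences of the 9 genes. Of its stretches, 0.232% occur in other genes.

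Sh2d6 and Sh2d7 encode small adaptor-like proteins with an SH2 domain, the module that binds phosphorylated tyrosine, and little is known of what they do. Sh2d6 lies at chr6:72513641-72521707 on the minus strand and Sh2d7 at chr9:54538984-54545020 on the plus strand. Sh2d6 held 2267, 389.6, 4397, 4587 and 3256 normalized counts in WT replicates 1 to 5 and 191 to 1874 with a median of 668 in Chd8L+/-. Every WT library but replicate 2 exceeded every Chd8L+/- library. Its log2 fold change was -2.03 ± 0.64 (SE, limma adjusted p = 0.124).

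For Sh2d7 the WT libraries held 928, 269.9, 1692, 2019 and 1181 normalized counts, and the Chd8L+/- libraries ran from 120.4 over 395 to 889. The groups again overlapped only through WT replicate 2. The log2 fold change was -1.70 ± 0.55 (SE, limma adjusted p = 0.125). Of the 75-base stretches of Sh2d7, 5.55% also occur in Cib2, which overlaps it on the opposite strand, and Cib2 had a log2 fold change of -1.11 ± 0.43 (SE, limma adjusted p = 0.153), so some reads could belong to either gene.

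Rgs13 encodes a GTPase-activating protein that shortens signaling from G protein-coupled receptors and is best known from germinal center B cells and mast cells. It lies at chr1:144138654-144177372 on the minus strand. WT replicates 1 to 5 held 861, 252, 2031, 1633 and 2458 normalized counts, against 188 to 658 with a median of 323 in Chd8L+/-. Here WT replicate 5 was the highest library, where replicate 3 or 4 led for each of the other genes. The log2 fold change was -1.76 ± 0.50 (SE, limma adjusted p = 0.121).

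Clec4a1, a C-type lectin receptor of myeloid cells, was the least abundant and the most different by its means. It lies at chr6:122921848-122934619 on the plus strand. It held 42.7, 9.13, 154, 180.5 and 145 normalized counts in WT replicates 1 to 5, and from 7.47 over 14.7 to 29.95 in Chd8L+/-. The 4 WT libraries other than replicate 2 were all above the 7 Chd8L+/- libraries. The means were 106 ± 75.5 (SD, n = 5) and 17.1 ± 7.54 (SD, n = 7), and the log2 fold change was -2.09 ± 0.63 (SE, limma adjusted p = 0.121). It rested on 8 to 182 reads a library, so counting error is larger here than for the other genes. The fold on the log2(value + 1) scale was 4.25, below the 6.23 of the ratio of the means. The log2 fold change was -2.11 with a pseudocount of 0.5 and -2.79 without WT replicate 2.

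Cd24a, a glycosylphosphatidylinositol-anchored sialoprotein found on many epithelial progenitors and immune cells, was the most abundant. It lies at chr10:43578284-43584265 on the plus strand. It held 8612, 4063, 18361, 18308 and 12505 normalized counts in WT replicates 1 to 5, and from 2099.7 over 3735 to 9670.5 in Chd8L+/-. Of the 7 Chd8L+/- libraries, 5 were below WT replicate 2, more than for any other of the 9 genes. The log2 fold change was -1.52 ± 0.41 (SE, limma adjusted p = 0.121). Of its stretches, 1.10% occur in the related locus Gm6212.

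**Figure D2:**
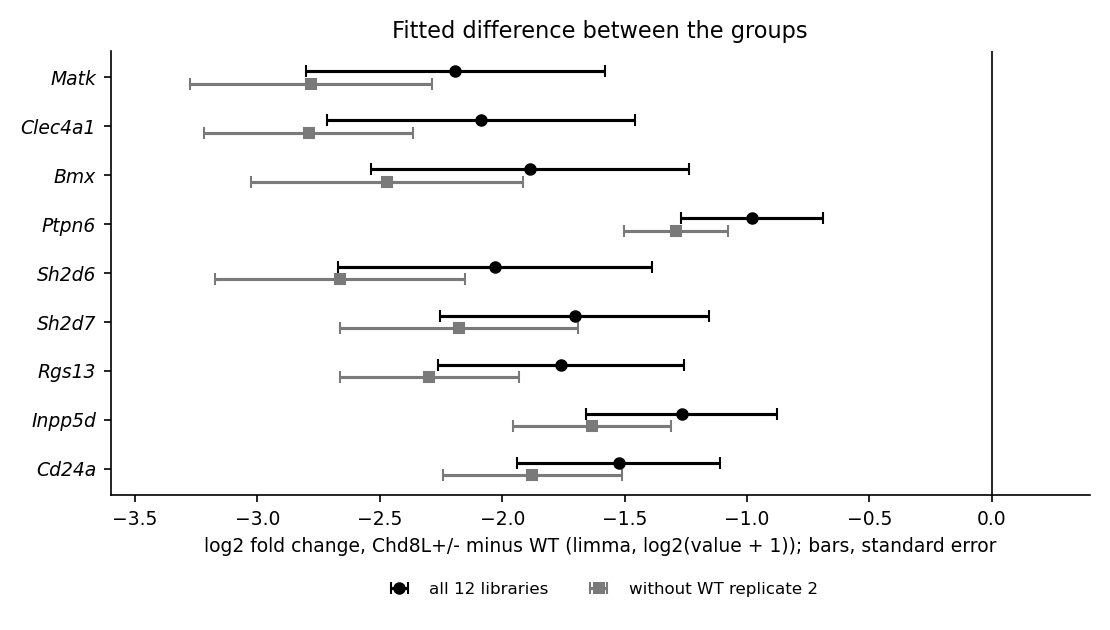
Log2 fold change (Chd8L+/- minus WT, limma on log2(value + 1)) of the 9 genes with its standard error, over all 12 libraries (circles) and without WT replicate 2 (squares). Every value is below 0, from -2.19 to -0.98 over all libraries, and moves further below 0 without WT replicate 2.

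Between genes, levels were compared as normalized counts per kb of transcript, with the median length of a gene's protein-coding transcripts. In WT the order was Cd24a (9668 ± 4854 (SD, n = 5) per kb), Sh2d6 (2429 ± 1405), Ptpn6 (1681 ± 757), Rgs13 (947 ± 583), Matk (910.3 ± 580.4), Sh2d7 (598 ± 334), Bmx (259 ± 153), Inpp5d (235 ± 125) and Clec4a1 (68.3 ± 48.5). Neighbors in this order kept it in all 5 WT libraries for Cd24a over Sh2d6, Ptpn6 over Rgs13, Sh2d7 over Bmx and Inpp5d over Clec4a1. The other neighbors changed places between libraries, so Rgs13 and Matk, in order in 3 of 5, and Bmx and Inpp5d, in order in 2 of 5, were not separated. In Chd8L+/- libraries Ptpn6 was above Sh2d6 in 6 of 7, against 1 of 5 in WT. With the longest transcript as the length this was 2 of 7 and 1 of 5, so that order depends on the length used. By that length Ptpn6 was at 801 per kb in WT and came after Rgs13.

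The 9 genes moved together from library to library. Over the 12 libraries Pearson's r between log2 values of the 36 pairs ran from 0.886 (Clec4a1 and Sh2d7) to 0.995 (Bmx and Sh2d6), with a median of 0.954. Within the 5 WT libraries the median was 0.974 and within the 7 Chd8L+/- libraries 0.903. The lowest of the latter was 0.576 for Clec4a1 and Cd24a. All pairs share the same libraries, and these values are a description. The profiles most like the mean profile of the 9 genes were those of Nrgn (r = 0.996), Alox5ap (0.996), Lrmp (0.995), Krt23 (0.995), Cd300lf (0.994), Tspan6 (0.994), Ccnj (0.993), Ffar3 (0.993), Slc4a8 (0.990) and Ptgs1 (0.990), with n = 12 for each. By single genes, Matk was nearest to Cd300lf (0.997), Bmx and Sh2d6 to Alox5ap (0.994 and 0.996), Sh2d7 to Pik3r5 (0.996), Inpp5d to Spib (0.988) and Cd24a to Lrmp (0.988). Clec4a1 was nearest to Smdt1 (0.990), Ptpn6 to Ldha (0.994) and Rgs13 to Serf2 (0.982), which are not tuft markers and which many cell types express.

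The 9 genes were then set against other tuft markers. Of 21 further markers, 19 were tested, all 19 had a lower mean log2 value in Chd8L+/-, and their median log2 fold change was -1.69. At an unadjusted p of at most 0.05, 17 of the 19 were lower, beside 11.8% of all genes. Dclk1, a microtubule-associated kinase used to stain tuft cells, was at -1.37 ± 0.48 (SE, limma adjusted p = 0.133), the cation channel gene Trpm5 at -1.65 ± 0.58 (adjusted p = 0.130), and Pou2f3 at -1.98 ± 0.58 (adjusted p = 0.121). The correlation of each of the 9 genes with the mean log2 value of these 19 markers over the 12 libraries ran from 0.931 (Clec4a1) to 0.994 (Sh2d6).

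Against that mean the 9 genes did not share a direction. The difference of a gene's log2 value from the mean of the 19 markers was lower in Chd8L+/- than in WT by 0.59 for Matk, where 5 of 7 Chd8L+/- libraries lay below every WT library. For Clec4a1 the change in that difference was -0.49, for Sh2d6 -0.43, for Bmx -0.29, for Rgs13 -0.16 and for Sh2d7 -0.10. It was 0.08 for Cd24a, 0.33 for Inpp5d and 0.62 for Ptpn6. Sh2d7 held the most constant relation to the markers among WT libraries, with a difference of 1.67 ± 0.08 (SD, n = 5) log2 units, while its own log2 values ranged over 4.06 units across the 12 libraries. No test was made of these differences. The signs for Cd24a and Rgs13 depended on the setting. Cd24a was at -0.16 with Dclk1 alone as the reference and at -0.003 with a pseudocount of 5, and Rgs13 was at 0.04 without WT replicate 5.

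**Figure D3:**
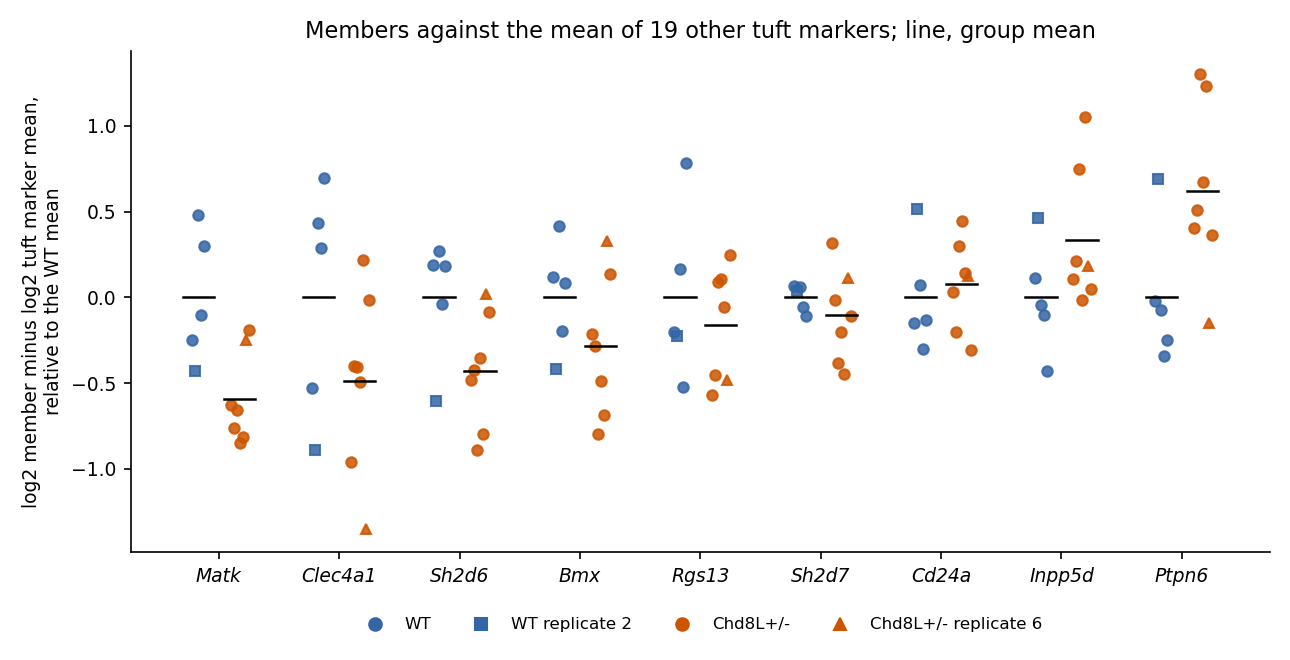
Log2 value of each gene minus the mean log2 value of 19 other tuft markers in each library, set to 0 at the WT mean, with a line at each group's mean. The Chd8L+/- mean lies at -0.59 for Matk and at 0.62 for Ptpn6, and single libraries of both groups overlap for every gene.

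The slope of a gene's log2 value on the marker mean over the 12 libraries also had Matk and Ptpn6 at its ends. The marker mean itself was 8.30 in WT and 6.70 in Chd8L+/-. The slope and the difference from the marker mean are therefore tied and are not separate observations. The slope was 1.29 for Matk, 1.28 for Sh2d6, 1.25 for Bmx, 1.18 for Clec4a1, 1.09 for Sh2d7 and 1.01 for Rgs13. It was 0.87 for Cd24a, 0.76 for Inpp5d and 0.58 for Ptpn6. Ptpn6 and Inpp5d, the genes with the shallowest slopes, are used throughout the blood lineages. The mean log2 value of 13 T cell markers stood at 7.18 ± 0.52 (SD, n = 5) for WT against 7.12 ± 0.48 (SD, n = 7) for Chd8L+/-, and correlated with Ptpn6 at -0.25 and with Inpp5d at -0.26 (n = 12). For Ptpn6 and Inpp5d in turn, the correlations were 0.14 and 0.14 with the B and plasma cell markers. They were -0.73 and -0.66 with the myeloid markers, and 0.23 and 0.25 with the mast cell markers. Only 4 of the 10 listed mast cell markers were tested, so that mean says little about mast cells. White blood cells as a source of part of the Ptpn6 and Inpp5d reads was not tested. With the marker mean as a covariate in the fit over all genes, the genotype coefficient of the 9 genes had a median of -0.10 and ran from -0.35 to 0.19, with 0 of 9 at an unadjusted p of at most 0.05, beside 2.32% of all genes in either direction, and a smallest p of 0.213 in the limma fit. In that fit the coefficients of Ptpn6, Inpp5d and Cd24a were -0.10, -0.09 and -0.24, opposite in sign to their differences from the marker mean. Without WT replicate 2, a setting added after seeing the data, the coefficients of the 9 genes ran wider, from -1.25 (Clec4a1) to 0.38 (Bmx).

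**Figure D4:**
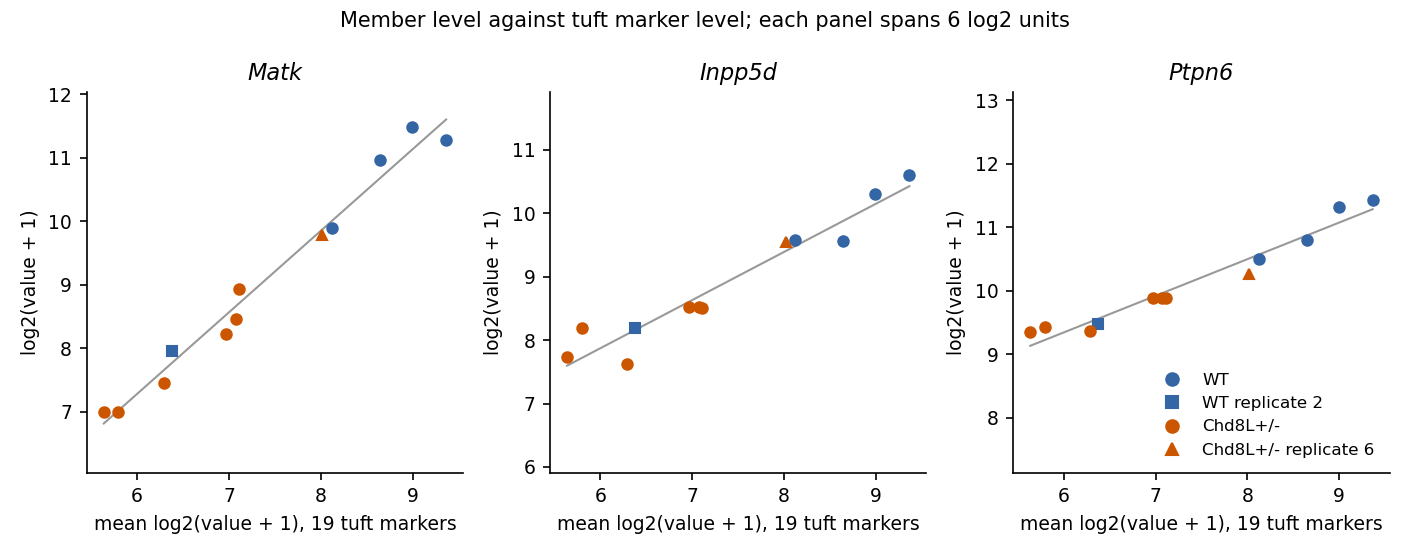
Log2(value + 1) of Matk, Inpp5d and Ptpn6 against the mean log2(value + 1) of 19 tuft markers, 1 point a library, with the least-squares line, every panel spanning the same number of log2 units. The slope is 1.29 for Matk, 0.76 for Inpp5d and 0.58 for Ptpn6, each from 1 line fitted to the libraries of both groups together, with no fit by group.

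Lists of relatives of these genes, and of other genes of the same signaling routes, had median differences near 0 with single genes far below it. Below, ± after a log2 fold change is its standard error. For the counts below at an unadjusted p of at most 0.05 over all 12 libraries, 11.8% of all genes tested were lower. In either direction 3110 of the 12808 genes passed that threshold. Of 17 tested kinases of the SRC, CSK, TEC and SYK families, 3 were lower and 0 higher at an unadjusted p of at most 0.05, with a median log2 fold change of 0.00. The lower ones included Lyn, an SRC-family kinase of blood cells (-0.48 ± 0.16, limma adjusted p = 0.125), and Csk, the paralog of Matk (-0.30 ± 0.13, adjusted p = 0.182). For relatives of Bmx the values were Tec at -0.33 ± 0.19 and Btk at 0.21 ± 0.54 (log2, SE).

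Among 15 phosphatases, 4 were lower and 1 higher at that unadjusted threshold, with a median of -0.03. Ptpn18 was at -1.09 ± 0.31 (SE, limma adjusted p = 0.121), Inpp5b at -0.44 ± 0.17 and Ptpn12 at -0.38 ± 0.16, and Inpp5e was at 0.39 ± 0.11. Ptprc (CD45), the general marker of white blood cells, was the other lower one, at -0.64 ± 0.28 (adjusted p = 0.187), and was named after its value was seen. Lists of white blood cell markers did not share a direction, with median log2 fold changes of -0.10 for T cells, -0.48 for B and plasma cells and 0.64 for myeloid cells. The source of the Ptprc difference was not tested. The closest paralogs of the 2 phosphatases among the 9 were near 0, Ptpn11 (SHP2) at 0.07 ± 0.11 and Inppl1 (SHIP2) at -0.15 ± 0.15.

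Of 38 adaptors, 33 were tested, 4 were lower and 1 higher at an unadjusted p of at most 0.05, and the median was 0.01. The lower ones were Fyb (-1.03 ± 0.32, limma adjusted p = 0.122) and Skap2 (-0.96 ± 0.31, adjusted p = 0.125), whose products bind each other in leukocyte adhesion, with Nck1 (-0.39 ± 0.11) and Dapp1 (-0.36 ± 0.12). Sh2d4a, the higher one and named after its value was seen, was at 0.62 ± 0.26. Of 12 tested RGS genes, 3 were lower and 2 higher, with a median of -0.11. Rgs2, which lies 134493 bases from Rgs13, was at -0.998 ± 0.23 (SE, limma adjusted p = 0.121), Rgs22 at -1.96 ± 0.72 and Rgs14 at -0.67 ± 0.21, while Rgs12 was at 1.05 ± 0.37 and Rgs5, named after its value was seen, at 1.81 ± 0.81.

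Of 25 lectin and inhibitory receptors, 15 were tested, 2 were lower and 1 higher at that threshold, with a median of 0.13. Cd300lf, an inhibitory receptor of myeloid and tuft cells that serves murine norovirus as its receptor, was at -2.12 ± 0.59 (SE, limma adjusted p = 0.121). Siglecf, a sialic acid-binding lectin of eosinophils and tuft cells, was at -2.06 ± 0.67 (adjusted p = 0.125), and Sirpa was at 0.99 ± 0.40. Clec4a2, the paralog of Clec4a1, had mean normalized counts of 1.91 in WT and 4.99 in Chd8L+/- and was not tested. Of 26 signaling effectors, 6 were lower and 0 higher, with a median of -0.11. The 4 with the smallest p were Rac2 (-1.51 ± 0.40, limma adjusted p = 0.121), Pik3cg (-1.33 ± 0.41), Vav1 (-1.37 ± 0.44) and Pik3r5 (-1.59 ± 0.52), a small GTPase, the catalytic and regulatory subunits of the G protein-coupled PI3 kinase and a guanine exchange factor, all of them best known from white blood cells.

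None of the genes in these 6 lists passed the adjusted threshold over all 12 libraries. Without WT replicate 2 the counts called lower and higher at an adjusted p of at most 0.05 were 3 and 0 kinases, 4 and 1 phosphatases, 6 and 1 adaptors, 4 and 1 RGS genes, 2 and 1 receptors and 8 and 1 effectors. In that setting 13.6% of all genes were called lower, and 1789 of the 12808 genes tested were called higher. The other cell type markers gave 0 of 13 T cell and 0 of 9 B and plasma cell genes past an unadjusted p of 0.05, 5 of 13 myeloid genes higher and 9 of 10 proliferation genes higher. Of the remaining lists, 2 of 7 goblet cell genes (Spink4 at -1.25 and Clca1 at -0.94), 1 of 8 Paneth cell genes (Ang4 at -1.93), 1 of 10 enterocyte genes (Fabp1 at -1.08), 1 of 10 enteroendocrine genes (Sct at -0.67) and 1 of 4 mast cell genes (Kit at -0.84) were lower at that unadjusted threshold, and 1 of 8 stem cell genes (Axin2 at 0.50) was higher. These genes were named after their values were seen. By sign alone, 9 of 10 enterocyte genes were lower and 8 of 8 stem cell genes higher. In the 12 libraries the 9 genes correlated with the mean of the proliferation genes at -0.919 (Clec4a1) to -0.755 (Bmx), with that of the myeloid genes at -0.784 (Cd24a) to -0.664 (Inpp5d), and with that of the enterocyte genes at 0.516 (Inpp5d) to 0.677 (Clec4a1). The part of these markers in the difference was not tested.

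**Figure D5:**
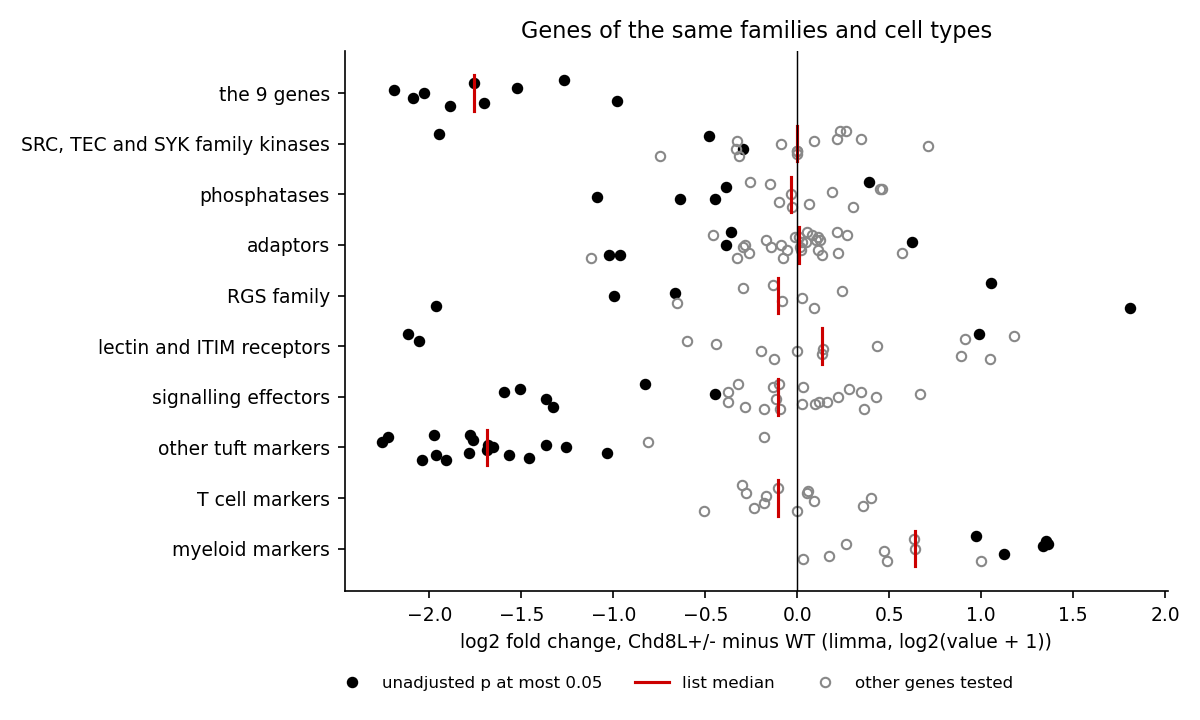
Log2 fold change (Chd8L+/- minus WT, limma on log2(value + 1)) of each tested gene in 10 lists, filled where the unadjusted p was at most 0.05, with a line at the list's median. The medians of the 9 genes (-1.76) and of the 19 tuft markers (-1.69) lie apart from those of the 6 family lists, which run from -0.11 to 0.13.

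The letter that opens the library name was the only part of that name used as a further grouping here. The names also carry a number, and several of these numbers occur in both groups. What the letter and the number stand for is not stated, and grouping by the number was not examined. Within letter A (2 WT, 2 Chd8L+/-) the median difference in log2 value of the 9 genes was -1.21, within B (2 and 1) -3.48 and within C (1 and 3) -2.11, and 9 of 9 genes were lower in Chd8L+/- within each. Over all genes the median differences were 0.01, 0.03 and -0.02. The share of all genes lower within each letter was not computed. The 9 genes move together from library to library, so 9 of 9 is not 9 separate observations. Letter D held only 1 Chd8L+/- library and gives no difference. WT replicate 2 belongs to letter A, where the difference was the smallest.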

How the data were processed

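The deposited table gives, per gene symbol, a normalized signal. The authors mapped single-end reads of poly(A)-selected libraries to mm10 with Tophat2, and the processing notes name DESeq2. From the values, the signal is a read count divided by a factor of each library. The counter and its strand setting are not given in the sources used here. Values were whole multiples of the value of 1 read in each library (100% within 0.01), so reads were recovered by division. The main test was limma 3.58.1 (R 4.3.3, moderated test with trend, two-sided, Benjamini-Hochberg adjustment) on log2(value + 1) of the 12808 genes with a mean of at least 10, without covariates. The alternatives were pseudocounts of 0.5 and 5, other filters and scalings, edgeR 4.0.16 and DESeq2 1.42.0 on recovered reads, blocks, covariates, 1 surrogate variable (sva 3.50.0) and each library left out.

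The 9 genes and all lists were chosen with earlier results of these data known. The genes named besides them were Chd8, up to 4 of each list with the smallest p and paralogs, 3 tuft markers, the genes with the most similar profiles and the nearest tested or overlapping genes. Some genes that this rule names are not reported here. Annotation was GENCODE M21, and promoters were RefSeq GRCm38.p6. That only protein-coding transcripts entered the median length was settled while the scripts were written, after the table had been opened. The labels do not tie a library to its own animal, while the study's methods give as many mice as libraries in each group.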

Additional observations from a re-analysis of the deposited data

Results flagged for a closer look

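In WT replicate 2, 3 measures lay far from the other 4 WT libraries by Dixon's test at the 95% level. Sh2d6 had a log2(value + 1) of 8.61 there, against 11.1 to 12.2 in the others. The mean log2 value of the 13 myeloid markers was 6.58, against 5.04 to 5.37. The mean log2 value of the 10 enterocyte genes was 15.0, against 15.8 to 15.9. Over the 9 genes, their differences from the tuft markers and 11 marker lists, 58 groups of libraries were examined, and chance alone gives about 2.9 such values.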

How the results depend on the processing

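Pairing was examined only by the replicate numbers of the labels. The numbers within the library names were not examined, so a pairing of another kind cannot be told from this. Libraries with the same replicate number did not deviate together (r = 0.189, -0.344, -0.129, -0.171 and -0.228 for numbers 1 to 5), and the replicate block called 0 genes and 0 of the 9, with a median log2 fold change of -2.12 for the 9. Over all genes, the main test called 3, edgeR 5, DESeq2 805 and the library letter block 451. Of the 9 genes, DESeq2 called 8 and the letter block 9. With each library left out, 0 to 3533 genes and 0 to 9 of the 9 were called, and the median ran from -2.30 to -1.55. WT replicate 2 alone gave the upper ends, and without any other library 0 to 8 genes and 0 of the 9 were called. The median was -0.10 with the tuft marker mean as a covariate and -0.41 with 1 surrogate variable. With that covariate Bmx (0.19), Sh2d6 (0.040) and Sh2d7 (0.058) turned positive. With it and without WT replicate 2, a combination added after seeing the data, Bmx (0.38) and Sh2d7 (0.34) were positive and Sh2d6 was at -0.01. The largest coefficients of that combination were Clec4a1 at -1.25 ± 0.58 (SE, limma adjusted p = 0.451) and Rgs13 at -0.71 ± 0.39 (adjusted p = 0.495). With Dclk1 alone as the reference Sh2d7 was at -0.34, and by the longest transcript Ptpn6 was at 801 per kb. The cause of these shifts was not tested.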

Other observations

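The genes nearest to the 9 on the chromosome were read off as well. Of the 18 nearest tested genes, 11 had a lower and 7 a higher mean log2 value in Chd8L+/-, with a median log2 fold change of -0.13. At an unadjusted p of at most 0.05, 5 were lower, beside 11.8% of all genes, and 1 was higher. In either direction 3110 of the 12808 genes passed that threshold. The lowest was Vmn2r25, a vomeronasal receptor gene 887027 bases beyond Clec4a1, with mean normalized counts of 39.2 in WT and 4.52 in Chd8L+/- (log2 fold change -2.72 ± 0.77 (SE), limma adjusted p = 0.121). The highest was Qrsl1, beyond Cd24a, at 0.44 ± 0.17 (adjusted p = 0.154). The immediate neighbors of Inpp5d, Neu2 and Atg16l1, were at -0.08 ± 0.33 and 0.05 ± 0.12, and those of Sh2d6, Mat2a and Capg, at 0.32 ± 0.18 and -0.10 ± 0.38 (log2, SE).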
